A study of Homo sapiens with 6 samples.

Results

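The genes described here are the NRF2 pathway and glutathione defence genes NFE2L2, KEAP1, GCLC, GCLM, GSR, NQO1, HMOX1, TXNRD1 and SRXN1, taken from the count table by gene symbol. They are 9 of the 58735 genes in the table, and all 9 were among the 15341 genes with enough counts to be tested. Their RNA was measured in UE7T-9, a human bone marrow mesenchymal stem cell line kept in culture. Control libraries came from UE7T-9 cells of the WT genotype (n = 3). SRRM4 KO libraries (n = 3) came from UE7T-9 cells transduced with a lentiviral CRISPR v2 vector against SRRM4, a neural splicing regulator, and then cloned by dilution. The KO line is therefore 1 clone, and a matched clone without the edit was not analysed here. The paper reports that SRRM4 protein was reduced in this line but not completely lost. Cloning, transduction and the edit cannot be told apart in any difference below.

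NFE2L2 encodes NRF2, a transcription factor that switches on defence genes when oxidants or electrophiles reach a cell. KEAP1 holds NRF2 in the cytoplasm and hands it to a CUL3 ubiquitin ligase for breakdown, and this grip loosens when reactive cysteines of KEAP1 are modified. Freed NRF2 pairs with a small MAF protein and binds the antioxidant response element in the promoters of genes for glutathione synthesis, NADPH-dependent reductases, quinone reduction and haem breakdown. In mesenchymal stem cells this system buffers the oxidative stress of culture, transfer and differentiation. NRF2 activity is set largely by protein stability, which RNA counts do not measure.

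Promoter sequence is shown first because NRF2 acts through a known promoter element. Windows from 250 bases before to 50 bases after a RefSeq transcription start (GRCh38.p14) were matched by symbol for 7 of the 9 genes, with 10 windows in all, and not for GSR and HMOX1. Both strands were searched for the core of the antioxidant response element, TGACNNNGC, which was found in 4 windows of 3 genes. Of all 35116 promoter windows in the table, 13.3% hold the same core. None of the 10 windows held the AP-1 motif TGANTCA, which can overlap this element and is in 7.71% of all windows. The GCLM window is printed from its far end to the core (chr1:93909456-93909680, minus strand), which reads TGACTAAGC on the strand opposite to the gene and ends 26 bases before the start. The first TXNRD1 window (chr12:104215529-104215688, plus strand) has the core TGACTTCGC 91 bases before the first annotated start, and a second match past that start is not printed. The second TXNRD1 window (chr12:104286920-104286948, plus strand) has its core 94 bases before an internal start. KEAP1 carries 2 cores before its second listed start, 46 bases (chr19:10502807-10502835, minus strand) and 23 bases (chr19:10502784-10502812, minus strand) before it. The last 3 stretches lie within annotated exons (GENCODE release 29) and are cut to the core with 10 bases on each side. All sequences read 5′ to 3′ in the direction of the gene, and capitals mark the core, which appears as its reverse complement where it lies on the other strand.
GCLM promoter: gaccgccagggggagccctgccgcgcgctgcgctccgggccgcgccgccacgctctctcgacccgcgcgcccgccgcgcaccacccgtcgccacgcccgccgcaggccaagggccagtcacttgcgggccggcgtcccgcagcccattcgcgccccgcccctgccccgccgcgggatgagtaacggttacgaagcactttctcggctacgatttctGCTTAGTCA
TXNRD1 promoter, first start: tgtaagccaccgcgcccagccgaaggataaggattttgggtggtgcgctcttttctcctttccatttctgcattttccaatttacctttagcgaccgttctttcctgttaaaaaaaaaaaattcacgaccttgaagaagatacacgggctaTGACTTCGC
TXNRD1 promoter, internal start: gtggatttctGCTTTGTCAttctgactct
KEAP1 second start, far core: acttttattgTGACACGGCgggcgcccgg
KEAP1 second start, near core: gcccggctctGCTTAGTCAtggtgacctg
The near core of KEAP1 and the core of GCLM are the same 9 bases. Whether NRF2 binds any of these matches was not measured, and the windows of NFE2L2, GCLC, NQO1 and SRXN1 held no match within these bases.

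The libraries held 21496117 to 23868323 counts, so that 3 counts, the limit that a count of 0 allows, correspond to between 0.123 and 0.139 CPM (counts scaled to a common library size by TMM; counting error only). Control library 1 stood apart, with 22403 genes counted against 20127 to 20674 in the other 5 libraries. The targeted gene SRRM4 (ENSG00000139767) had 0 counts in all 6 libraries, so the counts do not check the genotype labels. Of 8 mesenchymal markers, all tested, NT5E and VIM rose and the other 6 fell, and their summed level went from between 40143 and 44319 CPM in control to between 16464 and 18474 CPM in KO, mostly through the collagen genes COL1A1 and COL1A2. Blood cell markers summed to 20.4 to 22.2 CPM in control and 18.9 to 22.4 CPM in KO, with LYZ at 0 in all libraries; the tested markers CD14, CSF1R and CD34 did not pass. Endothelial markers summed to 22.5 to 26.1 CPM in control and 4.43 to 5.86 CPM in KO, with KDR and TEK lower among 3 tested, while PECAM1 and CDH5 stayed under 1 CPM. Epithelial markers summed to 97.4 to 119 CPM in control and 101 to 108 CPM in KO, with KRT8 lower among 3 tested. The part of these shifts in the results for the defence genes was not tested.

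NFE2L2 and 4 other defence genes fell in SRRM4 KO libraries and the others did not pass the test. The regulator NFE2L2, the catalytic subunit gene GCLC, and the enzyme genes NQO1, HMOX1 and TXNRD1 were lower by between 15.0% and 39.7% (edgeR quasi-likelihood test, adjusted p under 0.05). Among all tested genes, 20.9% were called lower and 20.7% higher, against 5 of 9 and 0 of 9 here. The count of 0 higher was also 0 at an unadjusted p under 0.05 and with DESeq2. No member passed a log2 fold change beyond 1 together with the adjusted p, also by DESeq2, as 12.6% of all tested genes did. The groups did not overlap for 6 of the 9 genes, against 51.8% of all tested genes. The median log2 fold change of the 9 was -0.23, beside -0.01 over all tested genes. Since RNA was taken from whole cultures, fewer cells expressing a gene and less of its RNA per cell cannot be told apart. The labels do not say that libraries of a group came from separate cultures, so the p-values measure the spread between these libraries, which may be technical.

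**Figure D1:**
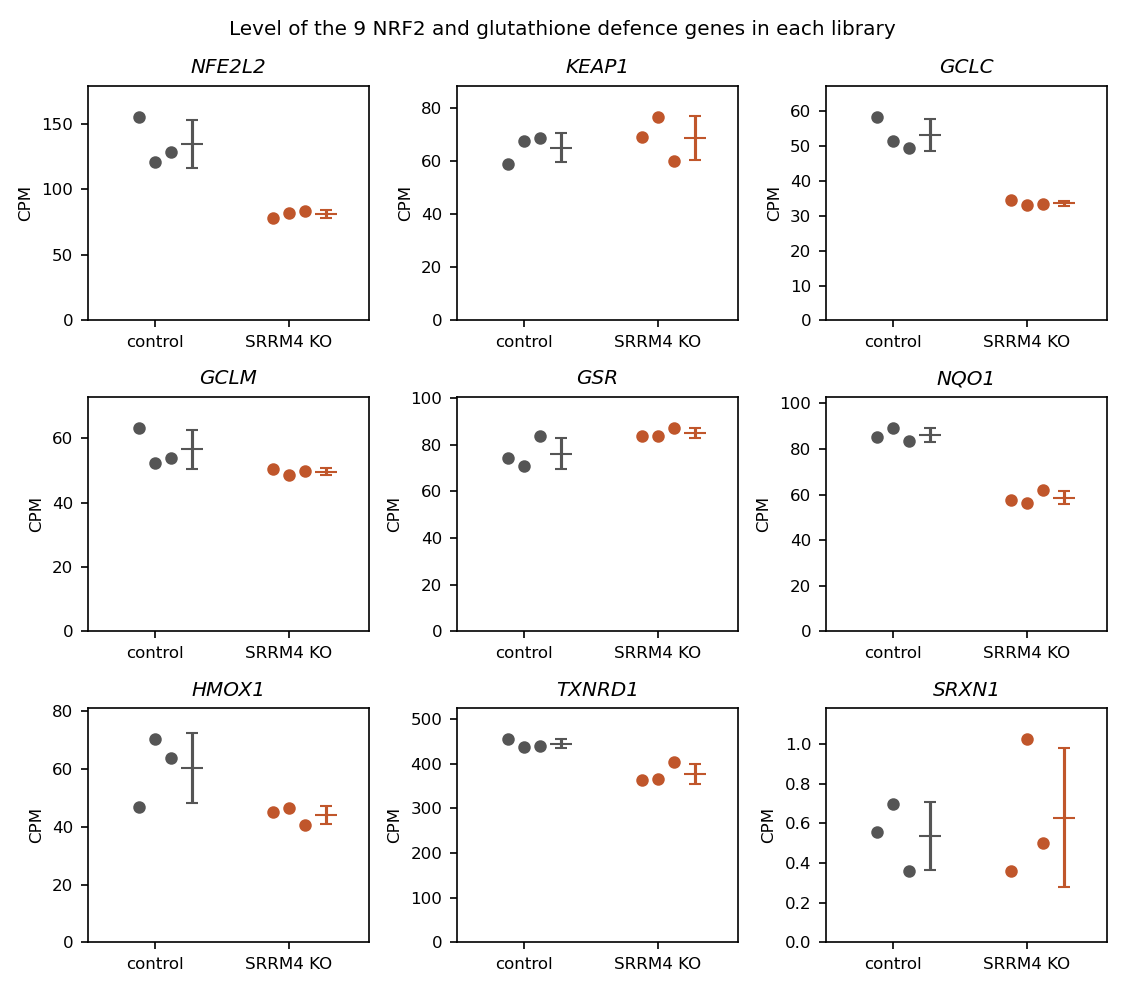
CPM (counts scaled to a common library size) of each of the 9 genes in the 3 control libraries (grey) and the 3 SRRM4 KO libraries (orange), with the group mean and SD as a bar at the right of each set. The points of NFE2L2, GCLC and NQO1 lie well apart between groups, those of HMOX1 nearly touch, with 46.8 CPM in control library 1 and 46.4 CPM in KO library 2, and those of KEAP1, GSR and SRXN1 overlap.

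NFE2L2 (ENSG00000116044), the gene of NRF2 itself, is read from the minus strand of chromosome 2 (GRCh38, 177227595 to 177392697). It was at 156, 121 and 128 CPM in control libraries 1 to 3 and at 78.0, 82.3 and 83.8 CPM in KO libraries 1 to 3. Every KO library was below every control library, and the KO libraries lay closer together than the controls. The mean level went from 135 ± 18.3 CPM to 81.4 ± 3.03 CPM (SD, n = 3 each). This was a log2 fold change of -0.73 (SE 0.10, 95% interval -0.94 to -0.52, edgeR adjusted p = 3.02e-05). It was -0.80 to -0.62 when each library was left out in turn, and -0.48 after each chromosome was centred on the median of its tested genes (edgeR adjusted p = 0.00128). AC019080.1, a transcript inside NFE2L2 on the same strand, shares 17.6% of the exonic bases of NFE2L2 and averaged 65.0 counts in control and 22.0 in KO, against 2946 and 1862 counts of NFE2L2.

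KEAP1 (ENSG00000079999), the NRF2 inhibitor, is read from the minus strand of chromosome 19 (10486120 to 10503741). Its level was 59.0, 67.5 and 69.0 CPM in control and 69.1, 76.9 and 60.2 CPM in KO libraries. The groups overlapped, with KO library 3 below control libraries 2 and 3. Its log2 fold change was 0.08 (SE 0.11, edgeR adjusted p = 0.603), and its 95% interval ran from -0.15 to 0.30. The value turned negative without KO library 2 (-0.02) and after chromosome centring (-0.06), and was 0.15 without KO library 3 and 0.01 without control library 1. 

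Of the subunit genes of glutamate-cysteine ligase, the enzyme of the first and rate-limiting step of glutathione synthesis, GCLC fell and GCLM did not pass. GCLC (ENSG00000001084), the catalytic subunit, is read from the minus strand of chromosome 6 (53497341 to 53616970). It was at 58.5, 51.5 and 49.6 CPM in control and at 34.5, 33.0 and 33.4 CPM in KO libraries. The KO libraries lay within 2 CPM of each other and all below the lowest control. GCLC had a log2 fold change of -0.66 (SE 0.10, 95% interval -0.88 to -0.45, edgeR adjusted p = 8.08e-05), a decrease of 36.8%. GCLM (ENSG00000023909), the modifier subunit, which lowers the need of the enzyme for substrate and eases its feedback inhibition, is read from the minus strand of chromosome 1 (93885205 to 93909456). It was at 63.3, 52.2 and 54.0 CPM in control and at 50.5, 48.5 and 49.9 CPM in KO libraries. All 3 KO libraries were below the controls, by a margin of under 2 CPM from control library 2. The log2 fold change of GCLM was -0.19 (SE 0.10, edgeR adjusted p = 0.148), with a 95% interval from -0.40 to 0.02. It was -0.10 (edgeR adjusted p = 0.376) without control library 1.

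The reductase genes keep glutathione and thioredoxin in their reduced forms at the cost of NADPH; TXNRD1 fell and GSR did not pass. GSR (ENSG00000104687), glutathione reductase, is read from the minus strand of chromosome 8 (30678061 to 30727999). Its level was 74.0, 70.6 and 83.5 CPM in control and 83.5, 83.5 and 87.2 CPM in KO libraries. Control library 3 was at the level of KO libraries 1 and 2, so the groups overlapped. GSR had a log2 fold change of 0.16 (SE 0.09, 95% interval -0.04 to 0.35, edgeR adjusted p = 0.188). It was 0.10 without control library 2 and 0.07 after chromosome centring. TXNRD1 (ENSG00000198431), cytosolic thioredoxin reductase, is read from the plus strand of chromosome 12 (104215779 to 104350305). It was at 456, 438 and 440 CPM in control and at 364, 366 and 404 CPM in KO libraries. All KO libraries were below the controls, and KO library 3 lay nearest to them. The log2 fold change of TXNRD1 was -0.23 (SE 0.07, 95% interval -0.39 to -0.08, edgeR adjusted p = 0.0182), a decrease of 15.0%. Its call was lost without KO library 1 (adjusted p = 0.0888) and without KO library 2 (adjusted p = 0.0919), and after chromosome centring (-0.18, adjusted p = 0.0654), all by edgeR.

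NQO1 (ENSG00000181019), which reduces quinones by paired electrons and so keeps them out of redox cycling, is read from the minus strand of chromosome 16 (69706996 to 69726951). It was at 85.2, 89.4 and 83.6 CPM in control and at 57.7, 56.4 and 61.9 CPM in KO libraries. The groups were far apart and the spread within each was small. NQO1 had a log2 fold change of -0.55 (SE 0.09, 95% interval -0.74 to -0.37, edgeR adjusted p = 0.000121), a decrease of 31.8%. After chromosome centring it was -0.27 (edgeR adjusted p = 0.0224). An antisense gene, AC092115.2, covers 17.7% of its exonic bases and had 0 counts in both groups. These libraries carry no strand and how shared reads were counted is not given, so these counts do not show that AC092115.2 was silent.

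HMOX1 (ENSG00000100292), the inducible haem oxygenase that turns haem into biliverdin, iron and carbon monoxide, is read from the plus strand of chromosome 22 (35380361 to 35394214). It was at 46.8, 70.5 and 63.8 CPM in control and at 45.2, 46.4 and 40.7 CPM in KO libraries. Control library 1 was level with the KO libraries and far below the other control libraries. The mean was 60.4 ± 12.2 CPM in control and 44.1 ± 3.02 CPM in KO (SD, n = 3 each). The log2 fold change was -0.45 (SE 0.13, 95% interval -0.73 to -0.17, edgeR adjusted p = 0.0115), a decrease of 27.0%. After chromosome centring it was -0.19 (adjusted p = 0.274, edgeR). The call was also lost without control library 2 (adjusted p = 0.0689) and without KO library 3 (adjusted p = 0.0505), and without control library 1 the log2 fold change was -0.61, all by edgeR.

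SRXN1 (ENSG00000271303), sulfiredoxin, which repairs over-oxidized peroxiredoxins, is read from the minus strand of chromosome 20 (646615 to 653370). Counts were 12, 15 and 8 in control and 8, 25 and 11 in KO libraries. These counts were low and the groups overlapped. Its log2 fold change was 0.24 (SE 0.58, edgeR adjusted p = 0.775), and its 95% interval, -0.995 to 1.47, is too wide to give a direction. Of its exonic bases, 85.0% also belong to AL121758.1, a gene on the same strand with a mean of 2.00 counts in control and 1.67 in KO. How shared reads were counted is not given in the sources used here, so the level of SRXN1 cannot be read from its count.

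Levels of different genes were compared per kilobase of exonic length, taken over all annotated exons of a gene. The transcripts expressed may be shorter, so the order depends on this choice of length. TXNRD1 stood first in both groups, with 66.3 ± 1.53 CPM per kilobase in control and 56.3 ± 3.31 in KO (SD, n = 3 each). In control, NQO1 (26.4 CPM per kilobase), HMOX1 (25.1), NFE2L2 (22.6) and GSR (20.2) followed, and neighbours in that order overlapped in their ranges. KEAP1 (17.3), GCLM (10.4) and GCLC (6.15) came after them without overlap between neighbours. Before division by length, GCLM was at 56.5 CPM and GCLC at 53.2 CPM in control, with lengths of 5420 and 8646 bases. In KO libraries GSR moved to the place after TXNRD1, with 22.5 CPM per kilobase. HMOX1 (18.3), KEAP1 (18.3) and NQO1 (18.0) were then not separated from each other. NFE2L2 (13.6), GCLM (9.16) and GCLC (3.89) followed, each below the range of the one before. SRXN1 came last in both groups, at 0.199 CPM per kilobase in control and 0.233 in KO, with the limit on its count given above. Among the 12958 protein-coding genes tested, NFE2L2 stood at percentile 85.7 in control and 74.6 in KO, GCLC at 53.0 and 40.9, and TXNRD1 at 96.2 and 95.1.

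Ratios of member genes within a library do not depend on how libraries are scaled. For NFE2L2 over KEAP1, the target over its inhibitor, the ratio of counts was 2.64, 1.79 and 1.86 in control and 1.13, 1.07 and 1.39 in KO libraries. GCLC over GCLM, the catalytic over the modifier subunit, was 0.924, 0.986 and 0.919 in control and 0.683, 0.681 and 0.669 in KO libraries. GSR over TXNRD1, the glutathione over the thioredoxin reductase, was 0.162, 0.161 and 0.190 in control and 0.229, 0.228 and 0.216 in KO libraries. In these ratios the groups did not overlap, the first and second being lower in KO and the third higher. The differences of mean log2 ratio, KO minus control, were -0.79, -0.48 and 0.40, each with an exact two-sided permutation p of 0.1, the smallest that 3 against 3 libraries allow (0.133 after adjustment over 4 ratios). HMOX1 over NQO1 was 0.550, 0.789 and 0.763 in control and 0.783, 0.822 and 0.657 in KO libraries, which overlapped (difference 0.12, exact permutation p = 0.6). The design could not reach an adjusted p under 0.05 for any of the ratios.

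**Figure D2:**
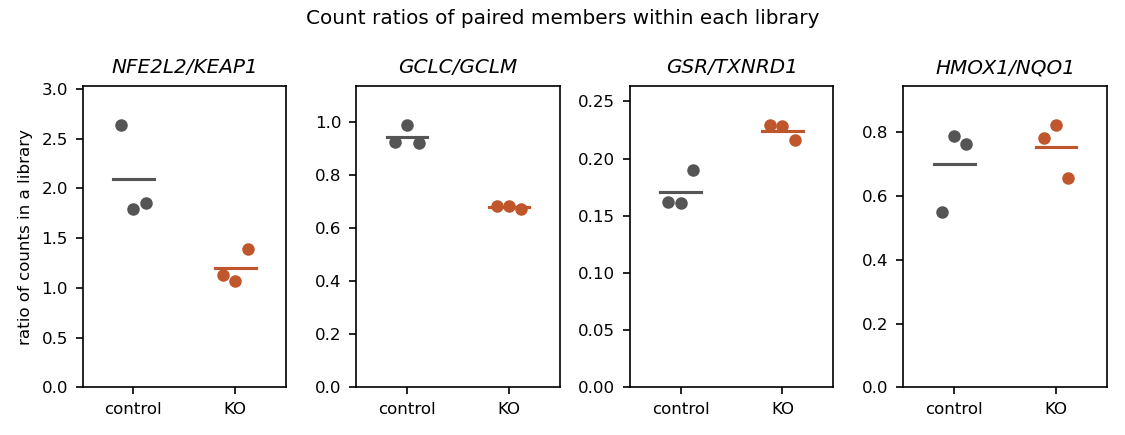
Ratio of the counts of 2 member genes within each library, for control (grey) and SRRM4 KO (orange), with the group mean as a line; each vertical axis starts at 0. NFE2L2/KEAP1 and GCLC/GCLM are lower in all KO libraries, GSR/TXNRD1 is higher in all of them, and HMOX1/NQO1 overlaps.

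Chromosomes differed in the median log2 fold change of their tested genes, from -0.28 on chromosome 16 to 0.15 on chromosome 20 among those that hold a member. Each member was set beside its chromosome and its 20 nearest tested genes on each side. The neighbours of HMOX1 changed by -0.36 in the median (log2 scale), with 34 of 40 below 0, close to the -0.45 of HMOX1 itself. Those of NQO1 had a median of -0.34, with 32 of 40 below 0, and those of NFE2L2 a median of -0.28, with 30 of 40 below 0. GCLC lay among genes that were on balance higher, with a median of 0.13 and 14 of 40 below 0, and TXNRD1 among neighbours with a median of -0.01. After each chromosome was centred on its own median, GCLC was at -0.76 (edgeR adjusted p = 2.35e-05), and NFE2L2 and NQO1 still passed. HMOX1 and TXNRD1 no longer passed in that fit, which left 3 of 9 members lower.

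**Figure D3:**
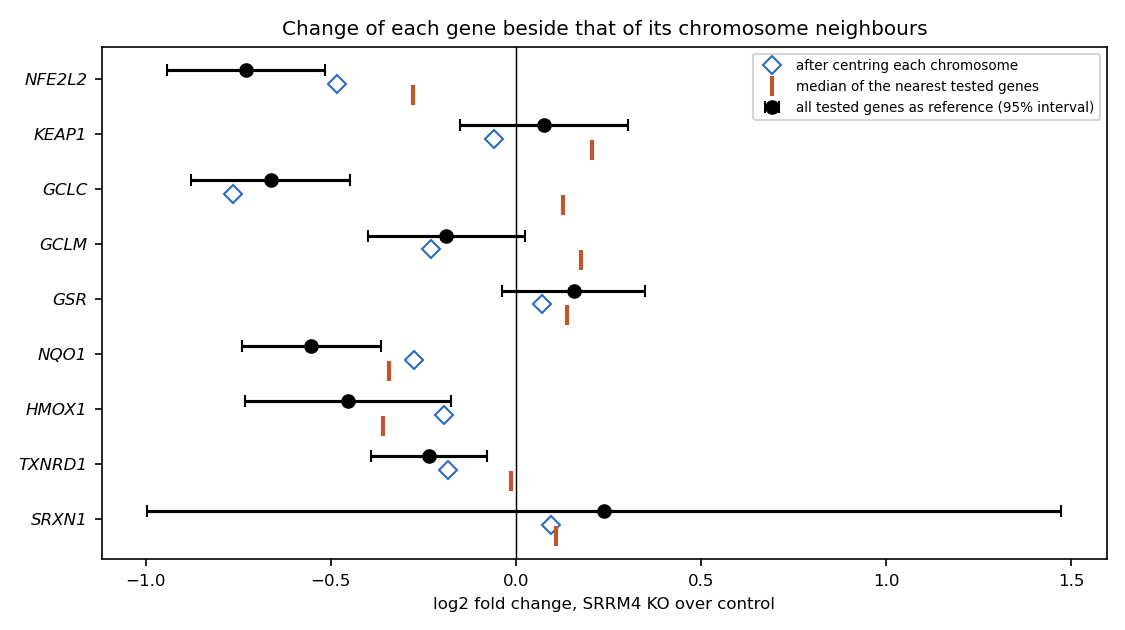
Log2 fold change of each gene, SRRM4 KO over control, with its 95% interval (black), the value after centring each chromosome (blue diamonds) and the median of the nearest tested genes (orange bars; 40 genes, for SRXN1 29). The neighbours of NFE2L2, NQO1 and HMOX1 have medians below 0, whereas those of GCLC, GCLM, KEAP1 and GSR have medians above 0.

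Beyond the 9 genes, 99 gene IDs of the surrounding pathways were listed and 92 tested. Of these, 18 rose (19.6%, beside 20.7% of all tested genes), 32 fell (34.8%, beside 20.9%) and 42 did not pass, and the median log2 fold change was -0.10. The share that rose was near that of all tested genes, and the counts of each list that follows are to be read beside these shares of all tested genes. Of the 50 called genes, 12 lost the call under at least 1 of 14 alternatives, which do not include the test against a 1.2-fold change, run for the 9 members alone. Past a log2 fold change of 1 together with the adjusted p were 2 higher genes, NFE2L3 and CBR3. The 5 lower ones were BACH2, SLC7A11, CHAC1, ASNS and PSAT1. These 7 are 7.61% of the 92, beside 12.6% of all tested genes.

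Among 10 tested relatives and partners of NRF2, 3 rose (beside 20.7% of all tested genes), 2 fell (beside 20.9%) and 5 did not pass. NFE2L3, a related transcription factor, rose from 7.96 ± 0.47 to 21.9 ± 2.24 CPM, a log2 fold change of 1.46. NFE2L1, a membrane-bound relative that drives proteasome genes, rose by 0.22 on the log2 scale, but was at 0.01 (edgeR adjusted p = 0.944) after chromosome centring and lost the call under 7 alternatives in all. The small MAF partners differed, with MAFG higher (0.45, and 0.24 after chromosome centring), MAFK lower (-0.95) and MAFF at 0.08 without passing, all as log2 fold changes. MAFF was at -0.04 without control library 1, 0.20 without control library 2 and 0.34 after chromosome centring. BACH2, a repressor at the same DNA element that is best known in B cells, fell from 6.54 to 1.73 CPM (-1.92). The repressor BACH1 (0.01), the ligase scaffold CUL3 (-0.20, but -0.06 without control library 1, -0.10 without KO library 1 and 0.04 after chromosome centring) and SQSTM1 (-0.19), which draws KEAP1 into autophagy, did not pass. Without control library 1, SQSTM1 did, at -0.27 (edgeR adjusted p = 0.00282), and without KO library 3 it was at -0.12 (adjusted p = 0.411).

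Glutathione supply and turnover had 2 genes higher (16.7%, beside 20.7%) and 6 lower (beside 20.9% of all tested genes) among 12 tested, with a median log2 fold change of -0.56. SLC7A11, the cystine importer and an NRF2 and ATF4 target, was at 385, 290 and 289 CPM in control and at 135, 126 and 156 CPM in KO libraries. All its KO libraries were far below the controls, with a log2 fold change of -1.21 (SE 0.11, edgeR adjusted p = 6.95e-07). Its partner chain SLC3A2 (-0.64), the transsulfuration enzymes CTH (-0.66) and CBS (-0.79), and the glutathione exporter ABCC1 (-0.48) fell too. The call of ABCC1 was lost after chromosome centring, at -0.20 (edgeR adjusted p = 0.0707). CHAC1, which degrades glutathione, fell from 35.2 ± 5.39 to 7.00 ± 1.76 CPM (log2 fold change -2.34). GSS, the enzyme of the last synthesis step, was at 47.5, 60.7 and 55.3 CPM in control and at 84.0, 83.8 and 86.7 CPM in KO libraries. It rose by 0.64 on the log2 scale (edgeR adjusted p = 0.000107), opposite to GCLC, and CHAC2, a relative of CHAC1, rose by 0.91.

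Glutathione peroxidases and glutaredoxins had 2 of 9 tested genes higher (22.2%, beside 20.7% of all tested genes) and 2 lower (22.2%, beside 20.9%). Glutathione S-transferases had 1 of 13 tested genes higher (7.69%) and 4 lower (30.8%). Of 9 tested peroxidases and glutaredoxins, GLRX (0.87) and GLRX3 (0.64) rose, GPX7 (-0.92) and GPX8 (-0.41), both resident in the endoplasmic reticulum, fell, and GPX1 (0.19) and GPX4 (0.00), which reduces lipid peroxides, did not pass. Of 13 tested glutathione S-transferases, GSTO1 (0.55) rose and GSTK1 (-0.44), GSTM2 (-0.92), GSTM3 (-0.61) and GSTM4 (-0.93) fell. Of the exonic bases of GSTM1, 38.3% also lie in other genes, mainly GSTM2, and of those of GSTM2 10.2%, mainly GSTM1, so the split of reads between them is uncertain. GSTP1 (-0.17) and MGST1 (0.16) did not pass, but did without control library 1, at -0.32 (edgeR adjusted p = 0.000474) and 0.22 (adjusted p = 0.0105). GSTP1 was nearer to 0 without control library 2 (-0.08) or 3 (-0.10). GSTK1 was at -0.18 after chromosome centring (edgeR adjusted p = 0.192).

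Of 14 tested thioredoxins, peroxiredoxins and sestrins, 4 rose (28.6%) and 3 fell (21.4%). The rises were PRDX1 (0.34), PRDX2 (0.53), PRDX4 (0.87) and SESN1 (0.79), and the falls TXN2 (-0.43), TXNRD3 (-0.62) and SESN2 (-0.47). PRDX1 and PRDX2 remove peroxides with electrons from cytosolic thioredoxin, which TXNRD1 recharges, and PRDX4 works in the endoplasmic reticulum. After chromosome centring PRDX4 was at 0.56, and TXN2 at -0.17 lost the call (edgeR adjusted p = 0.257), as TXNRD3 did without KO library 1 or 3 (adjusted p = 0.0639 and 0.0562). TXN (0.13), the cytosolic thioredoxin, and TXNIP (-0.17), its inhibitor, did not pass, though TXN did after chromosome centring (0.37, edgeR adjusted p = 0.00584). PRDX1 shares 24.9% of its exonic bases with MMACHC on the other strand, and these libraries carry no strand.

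Among the 6 NADPH-producing enzymes, PGD (0.39) and TKT (0.59) of the pentose phosphate pathway rose, and ME1 (-0.59) and IDH1 (-0.70, and -0.46 after chromosome centring) fell. For quinone, carbonyl, haem and iron handling, 2 of 17 tested genes rose (11.8%) and 5 fell (29.4%). CBR3 (1.31) and OSGIN1 (0.59) were higher, and AKR1C3 (-0.68), UGDH (-0.30), BLVRA (-0.40), FTH1 (-0.41) and SLC48A1 (-0.35) lower. BLVRA lost the call after chromosome centring (-0.15, edgeR adjusted p = 0.307), OSGIN1 without KO library 2 (adjusted p = 0.0622), UGDH without KO library 1 (adjusted p = 0.0567) and SLC48A1 under 8 alternatives, among them DESeq2 (adjusted p = 0.0659). FTL (0.04, with values from -0.09 after chromosome centring to 0.08 without control library 3) and AKR1C1 (0.35, but 0.64 without control library 1 and 0.14 without control library 2) did not pass. FTH1 shares 62.4% of its exonic bases with BEST1 and CBR3 shares 42.2% with CBR3-AS1, both on the opposite strand. SOD1 (0.29) rose, SOD2 (-0.34) and SOD3 (-0.47) fell, and CAT (0.09) did not pass, among 4 tested superoxide dismutase and catalase genes. The call of SOD1 was lost after chromosome centring (edgeR adjusted p = 0.0682) and without KO library 3 (adjusted p = 0.0853), and that of SOD2 without KO library 2 (adjusted p = 0.0507); without control library 1 SOD2 was at -0.21.

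The ATF4 pathway, which shares SLC7A11 and CHAC1 with glutathione metabolism and answers amino acid shortage, had 9 of 10 tested genes lower (beside 20.9% of all tested genes) and 1 higher (beside 20.7%), with a median log2 fold change of -0.97. ATF4 was at 322, 345 and 386 CPM in control and at 220, 200 and 218 CPM in KO libraries, without overlap (log2 fold change -0.72, edgeR adjusted p = 6.83e-06, and -0.46 after chromosome centring). The serine synthesis enzymes PSAT1 (-1.86) and PHGDH (-0.98), and the ATF4 targets TRIB3 (-0.96), ASNS (-1.82), DDIT3 (-0.52) and SESN2 (-0.47) fell with it. ATF3 (0.52) rose. DDIT3 shares 39.6% of its exonic bases with other genes, mainly MARS on the opposite strand, and lost the call without KO library 2 (edgeR adjusted p = 0.0593). ASNS shares 44.6% of its exonic bases with AC079781.5 on the same strand and averaged 3.44 CPM in control and 0.971 CPM in KO.

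**Figure D4:**
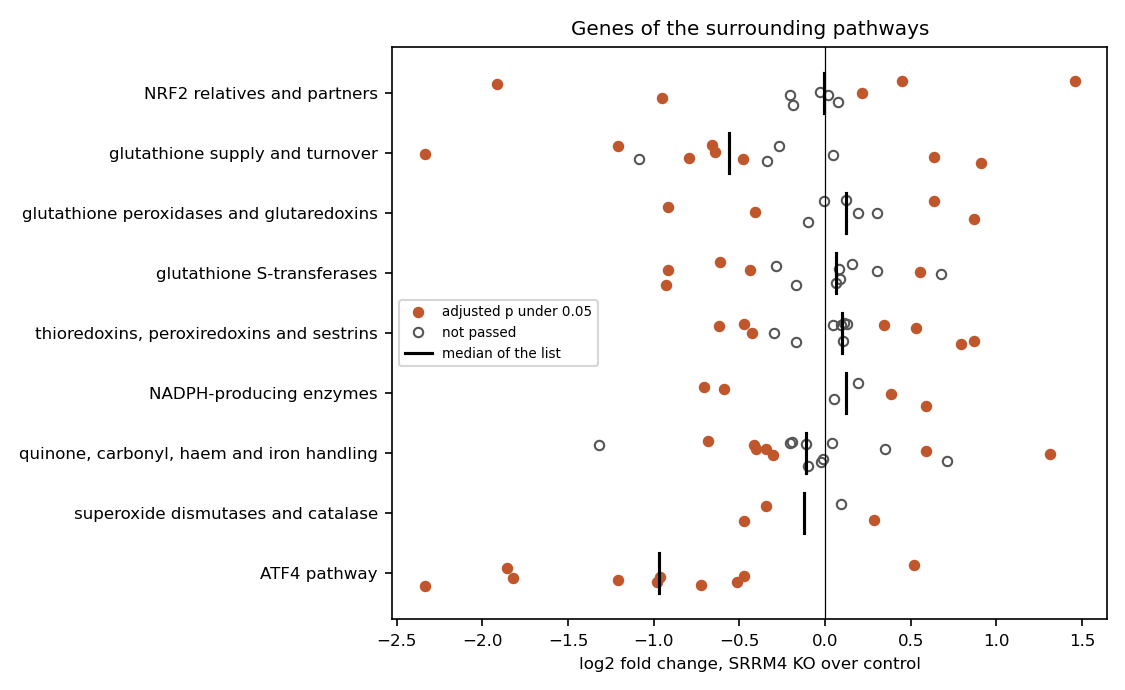
Log2 fold change, SRRM4 KO over control, of each tested gene in the lists around the NRF2 and glutathione genes; filled points passed an adjusted p under 0.05, open points did not, and the black bar is the list's median. The ATF4 pathway (median -0.97) and glutathione supply and turnover (median -0.56) lie lowest, and the other lists have medians between -0.12 and 0.12.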

How the data were processed

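Total RNA of 3 control and 3 SRRM4 KO libraries of UE7T-9 cells was read by mRNA-seq without strand. Raw read counts per gene were deposited by the authors, as whole numbers without normalization. The submitters' processing notes name HISAT2 2.0.5, featureCounts 1.5.0-p3 and DESeq2; options for reads shared by genes are not given in the sources used here. All 58735 gene IDs were found in GENCODE release 29 (GRCh38) with the same exonic length. Groups were taken from titles and genotypes, and 0 columns lacked a sample.

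Counts were tested with edgeR 4.0.16 in R 4.3.3 (TMM, filterByExpr, quasi-likelihood test, all 6 libraries, Benjamini-Hochberg over 15341 genes). A gene rose or fell with an adjusted p under 0.05. Standard errors, 95% intervals and CPM come from the same fit and TMM-scaled sizes. Ratios within a library were compared by exact permutation (SciPy). Lists are given as counts and medians, without a test. Replicate counts differed by more than sampling noise in every pair (chi-square per degree of freedom 4.93 to 21.4).

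The member genes, lists and tests were chosen with earlier results of these data known. The text names all members, every list gene past a log2 fold change of 1, up to 4 genes per list and direction by mean CPM, a fixed set of pathway genes (some of which are not reported here), and the 3 genes closest in profile to the member of largest change. Genes added for completeness of a call were named after their values were seen. Alternatives were DESeq2 1.42.0, DESeq2 size factors, upper quartile, no filter, a minimum of 10 counts per library, protein-coding genes only, the replicate number as a block, chromosome centring, a test against a 1.2-fold change (members only), and each library left out.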

Additional observations from a re-analysis of the deposited data

How the results depend on the processing

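NFE2L2, GCLC and NQO1 passed in the lower direction under all 14 alternatives other than the test against a 1.2-fold change, and KEAP1, GCLM and GSR passed under none of them. HMOX1 and TXNRD1 each passed in 11 of 14. Under chromosome centring, HMOX1 was at -0.19 and TXNRD1 at -0.18, and 3 members in place of 5 were lower; the cause was not tested. A test against a 1.2-fold change also left 3 members lower. With each library left out in turn, the log2 fold change ran from -0.61 to -0.33 for HMOX1 and from -0.29 to -0.21 for TXNRD1, and the number of lower members from 4 to 5. SRXN1, which the filter of at least 10 counts removed, passed in 0 of 13 alternatives, with values from -0.32 to 0.51.

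Deviations of same-numbered libraries correlated at -0.05, 0.08 and -0.05, and those of differently numbered libraries at -0.11 to 0.16. No shared deviation of same-numbered libraries was seen, which does not show whether they were handled as pairs. A replicate block left 5 members lower, and 17 pathway genes higher and 31 lower. With that block NFE2L1 and SLC48A1 lost the call. Of 1286 values of the 92 tested pathway genes under the same 14 alternatives, without the test against a 1.2-fold change, 1242 kept their side of the threshold, 27 lost the call and 17 gained it. Without control library 1, log2 fold changes of genes that did not pass were 0.15 for BACH1, 0.08 for GPX1, -0.08 for GPX4, 0.04 for TXN, -0.04 for TXNIP and 0.15 for CAT. SRXN1 had 8 to 25 counts per library, and its level cannot be read from its count, for the reason given above.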

Other observations

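The profile of NFE2L2 over the 6 libraries was most closely matched by MDFIC, ZC3H13 and ZNF804A among tested protein-coding genes. Their root mean square distances on centred log2(CPM + 0.5) were 0.021, 0.021 and 0.029. MDFIC (chromosome 7) averaged 144 CPM in control and 87.1 CPM in KO, ZC3H13 (chromosome 13) 110 and 65.7 CPM, and ZNF804A (chromosome 2, as NFE2L2) 16.9 and 9.99 CPM. The likeness is a description over 6 libraries of 2 groups and carries no test.

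The summed level of the 9 member genes was 961 to 999 CPM in control libraries and 783 to 821 CPM in KO libraries, and TXNRD1 gave the most counts of the 9 in each of them.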
